A study of Homo sapiens with 18 samples.

Results

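The genes of the human proteasome were followed across 2 malignant plasma cell lines treated with amiloride or TG003. They were taken as the protein-coding genes whose symbol begins with PSMA, PSMB, PSMC, PSMD, PSME, PSMF or PSMG followed by a digit. This rule found 49 of the 57905 gene identifiers in the count files. They are 8 alpha subunits, 3 structural and 3 constitutive catalytic beta subunits, and 4 inducible or tissue-specific catalytic beta subunits of the core, 6 ATPases and 11 other subunits of the regulatory cap, 7 assembly chaperones, and 5 activators or inhibitors. PSMC3IP, a meiotic recombination factor, and PSME3IP1, which binds PSME3, match the rule by symbol and are no subunits. PSMB3, a structural beta subunit, has an annotation identifier that matched none in the count files and was not analysed here.

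The proteasome degrades proteins that carry ubiquitin chains. Its barrel-shaped core holds the protease sites of PSMB5, PSMB6 and PSMB7, and its cap recognises, unfolds and feeds in the substrate with the help of the PSMC ATPases. Under interferon the catalytic subunits are replaced by PSMB8, PSMB9 and PSMB10, which form the immunoproteasome and favour peptides for presentation on class I molecules. Plasma cells make large amounts of secreted protein, and PSMB5 is the target of the proteasome inhibitors used to treat myeloma.

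KMS12-BM is a multiple myeloma line and JJN3 a plasma cell leukemia line. Poly(A)+ RNA was sequenced from 18 libraries, 3 in each of 6 groups, from KMS12-BM cells with amiloride at 0.1 mM for 24 h, KMS12-BM cells with TG003 at 0.4 mM for 24 h and KMS12-BM cells with DMSO, and from JJN3 cells with amiloride at 0.4 mM for 24 h, JJN3 cells with TG003 at 0.4 mM for 24 h and JJN3 cells with DMSO. The labels give no duration for DMSO, the vehicle, and name no separate cultures for a group's 3 libraries, so p-values measure only the spread between these libraries, which may be technical. Amiloride, a diuretic, blocks epithelial sodium channels. TG003 inhibits CLK kinases, which phosphorylate splicing factors. The amiloride dose differed between the lines, so line and dose cannot be told apart in any comparison of the amiloride responses.

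The libraries held 23707695 to 50570234 reads in genes. The proteasome genes took 0.56% to 0.823% of them. All 6 plasma cell markers were detected in all 18 libraries, with CD38 at 3.33, 4.42 and 5.28 CPM (reads of the gene per megaread of the scaled library) in JJN3 DMSO libraries. The marker SDC1 was low in KMS12-BM, at 13.67, 14.04 and 13.07 CPM with DMSO. It was at 2.352, 2.88 and 2.52 CPM with amiloride and 3.177, 2.384 and 3.691 CPM with TG003 in that line. In JJN3 DMSO libraries SDC1 was at 150.3, 161 and 174.6 CPM. PAX5, a B cell transcription factor, was at 55.5, 49.7 and 50.4 CPM in KMS12-BM DMSO libraries and at 0, 0.0564 and 0.0419 CPM in JJN3 DMSO libraries. The T cell, myeloid and fibroblast marker lists summed to at most 2.71 CPM in any library, and the epithelial list, led by EPCAM, to between 19.9 and 195.5 CPM. Processed pseudogenes, which are intronless copies of coding genes, took 0.106% to 0.13% of gene reads in the TG003 libraries and 4.49% to 5.61% in the amiloride and DMSO libraries. Reads aligned to several places made up 7.79% to 9.13% of records in TG003 libraries and 13.3% to 17.4% in amiloride and DMSO libraries. By sequence, 26 such copies matched 13 proteasome genes, and 6 of these (PSMA6, PSMC1, PSMC6, PSMD2, PSME2 and PSME3IP1) had over 5% of the reads of gene and copies on the copies in a group. The fold changes named for these 6 genes, over all libraries of a comparison, are also given with the reads of the copies added. Whether the TG003 libraries were aligned and counted with the settings of the others is not stated in the sources used here. In every comparison with TG003, a drug effect and such a difference cannot be told apart.

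Amiloride changed the proteasome genes of KMS12-BM in both directions. Of the 47 tested, 11 were higher and 18 lower than with DMSO, against a background of 68.7% of 15765 genes called (33.5% higher and 35.2% lower). Calls here and below are those of edgeR's quasi-likelihood test with an adjusted p under 0.05 (Benjamini-Hochberg, over all tested genes). Values after ± are standard errors of a log2 fold change unless SD is stated. The median log2 fold change was -0.024 over the 47 genes and -0.02 over all genes. In the core, 9 of the 16 tested subunits were lower and none was higher. Of these, the alpha subunits PSMA1 (-0.41, adjusted p = 0.0404), PSMA7 (-0.48, adjusted p = 0.0306) and PSMA3 were not called with the run of consecutive library numbers in the titles as a replicate block (adjusted p = 0.0702, 0.0723 and 0.0999), which left 15 lower genes in all. In the cap, 6 of 17 subunits were higher and 6 lower. Among the chaperones 3 of 7 were higher and 2 lower, and among activators and inhibitors 2 of 5 were higher and none lower.

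All 3 immunoproteasome subunits tested fell in KMS12-BM. PSMB8 (ENSG00000204264, chr6:32808494-32812456, GRCh37, minus strand), the inducible counterpart of PSMB5, was at 41.5, 34.4 and 33.00 CPM with amiloride, against 79.3, 81.6 and 93.8 CPM with DMSO. All 3 amiloride libraries lay below all 3 DMSO libraries, and the log2 fold change was -1.23 ± 0.11, adjusted p = 2.23e-06. PSMB9 (ENSG00000240065, chr6:32811913-32827628, plus strand), the counterpart of PSMB6, was at 17.7, 13.7 and 13.6 CPM with amiloride and 31.6, 27.5 and 32.96 CPM with DMSO (-1.03 ± 0.12, adjusted p = 1.36e-05). PSMB10 (ENSG00000205220, chr16:67968409-67970767, minus strand), the counterpart of PSMB7, was scarce in this line, at 3.68, 3.27 and 2.19 CPM with amiloride and 7.32, 5.13 and 4.37 CPM with DMSO (-0.85 ± 0.23, adjusted p = 0.00637). Neither gene's amiloride range reached its DMSO range. The fall of PSMB10 was not called once the trend of each library with transcript GC content was removed (-0.23, adjusted p = 0.236), an alternative chosen after seeing the data. PSMB8 and PSMB9 lie head to head and overlap each other, an antisense transcript and, for PSMB9, TAP1. The strand setting of the counting is not given in the sources used here, so reads of these neighbours may not be fully separated. The same limit holds for other genes followed here that overlap a neighbour on the opposite strand. Among them are PSMA3, PSMC3IP, PSMC5, PSMD5, PSMD6, PSME3 and PSMG2.

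The constitutive catalytic subunit PSMB5 was at 124, 129 and 137 CPM with amiloride and 163, 158 and 153 CPM with DMSO in KMS12-BM, a fall of small size (-0.28 ± 0.07, adjusted p = 0.00297) that was not called with the GC trend removed (-0.06, adjusted p = 0.386). PSMB6 and PSMB7, which carry the other core protease sites, were not called (0.08 and 0.25 on the log2 scale). PSMB4, a structural beta subunit, was lower (-0.70 ± 0.11, adjusted p = 0.00011). Among alpha subunits, which form the outer rings and the gate, PSMA5 fell to 57.7, 90.4 and 125 CPM with amiloride, against 166, 174 and 168 CPM with DMSO (-0.90 ± 0.21, adjusted p = 0.00373). The amiloride libraries were spread more widely than the DMSO libraries, and none reached them. PSMA3 was at 45.1, 33.1 and 31.9 CPM with amiloride and 35.3, 117 and 112 CPM with DMSO. The DMSO libraries fall apart here, with 1 of the 3 at the amiloride level, and the call (-1.26 ± 0.38, adjusted p = 0.0153) was lost without DMSO replicate 2 (adjusted p = 0.0608), without DMSO replicate 3 (0.061), without amiloride replicate 3 (0.065) and under the replicate block.

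In the cap, the ATPase PSMC5 showed the largest fall among subunits whose groups did not overlap. PSMC5 was at 34.4, 43.7 and 40.4 CPM with amiloride and 103, 91.8 and 86.1 CPM with DMSO, and every amiloride library lay below every DMSO library (-1.25 ± 0.10, adjusted p = 8.71e-07). Of the other ATPases, PSMC1, PSMC2 and PSMC6 were higher, by 0.42, 0.22 and 0.46 on the log2 scale. With the reads of their copies added, PSMC1 was higher by 0.34 ± 0.08, adjusted p = 0.00259 and PSMC6 by 0.44 ± 0.07, adjusted p = 9.06e-05. PSMD6, a scaffold subunit of the lid, was at 164, 186 and 188 CPM with amiloride and 114, 108 and 111 CPM with DMSO (0.69 ± 0.08, adjusted p = 8.12e-06). The 3 amiloride libraries all stood above the DMSO libraries. PSMD7 and PSMD12, also of the lid, were higher by 0.42 and 0.42. PSMD4, a receptor for ubiquitin chains, PSMD14, the enzyme that removes the chains, and the large scaffold subunits PSMD1 and PSMD2 were lower, with log2 fold changes of -0.88, -0.69, -0.52 and -0.79, and the lid subunit PSMD3 was at -0.35. PSMD2 was at -0.76 ± 0.06, adjusted p = 6.22e-07 with copies added.

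Assembly chaperones held the largest rise in KMS12-BM. PSMD5 (ENSG00000095261, chr9:123577774-123605229, GRCh37, minus strand), a chaperone of the cap base, was at 161, 191 and 187 CPM with amiloride and 79.7, 101 and 89.2 CPM with DMSO. Its mean was 179.6 ± 16.4 CPM with amiloride and 90.03 ± 10.8 CPM with DMSO (SD, n = 3 each), 1.99-fold higher (0.996 ± 0.10, adjusted p = 3.87e-06). PSMD10, another base chaperone also known as an oncoprotein of liver cells, was at 87.04, 97.6 and 94.6 CPM with amiloride and 62.2, 65.8 and 62.05 CPM with DMSO (0.56 ± 0.08, adjusted p = 5.15e-05). PSMG2, which starts the alpha ring together with PSMG1, was at 118, 145 and 147 CPM with amiloride and 87.03, 95.5 and 90.5 CPM with DMSO (0.58 ± 0.09, adjusted p = 0.000146). All 3 chaperones had groups that did not overlap. PSMG1, the partner of PSMG2, was not called (-0.14 ± 0.13, adjusted p = 0.344), but was called lower with the GC trend removed (-0.44, adjusted p = 0.00809). PSMG3 and PSMG4, which form the second early chaperone pair, were lower, at -0.68 and -0.71. PSMC3IP, the recombination factor that is no subunit, had the largest fall of the 47 tested genes, to 11.7, 12.2 and 11.3 CPM with amiloride, against 24.1, 31.8 and 30.5 CPM with DMSO (-1.29 ± 0.11, adjusted p = 9.62e-07).

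Of the activators and inhibitors in KMS12-BM, PSME3, the nuclear activator, and PSMF1, which inhibits the core, were higher by 0.34 ± 0.07 and 0.38 ± 0.07. PSME1 and PSME2, the subunits of the interferon-inducible activator, were not called (-0.34 ± 0.15, adjusted p = 0.0652 for PSME1, and 0.17 ± 0.15, adjusted p = 0.339 for PSME2). PSME1 was called lower without DMSO replicate 3 (-0.48, adjusted p = 0.00911) and without amiloride replicate 2 (-0.46, adjusted p = 0.0249). PSME2 was at 0.05 ± 0.12, adjusted p = 0.726 with copies added. Levels in single libraries are drawn in the plot of CPM by library.

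**Figure D1:**
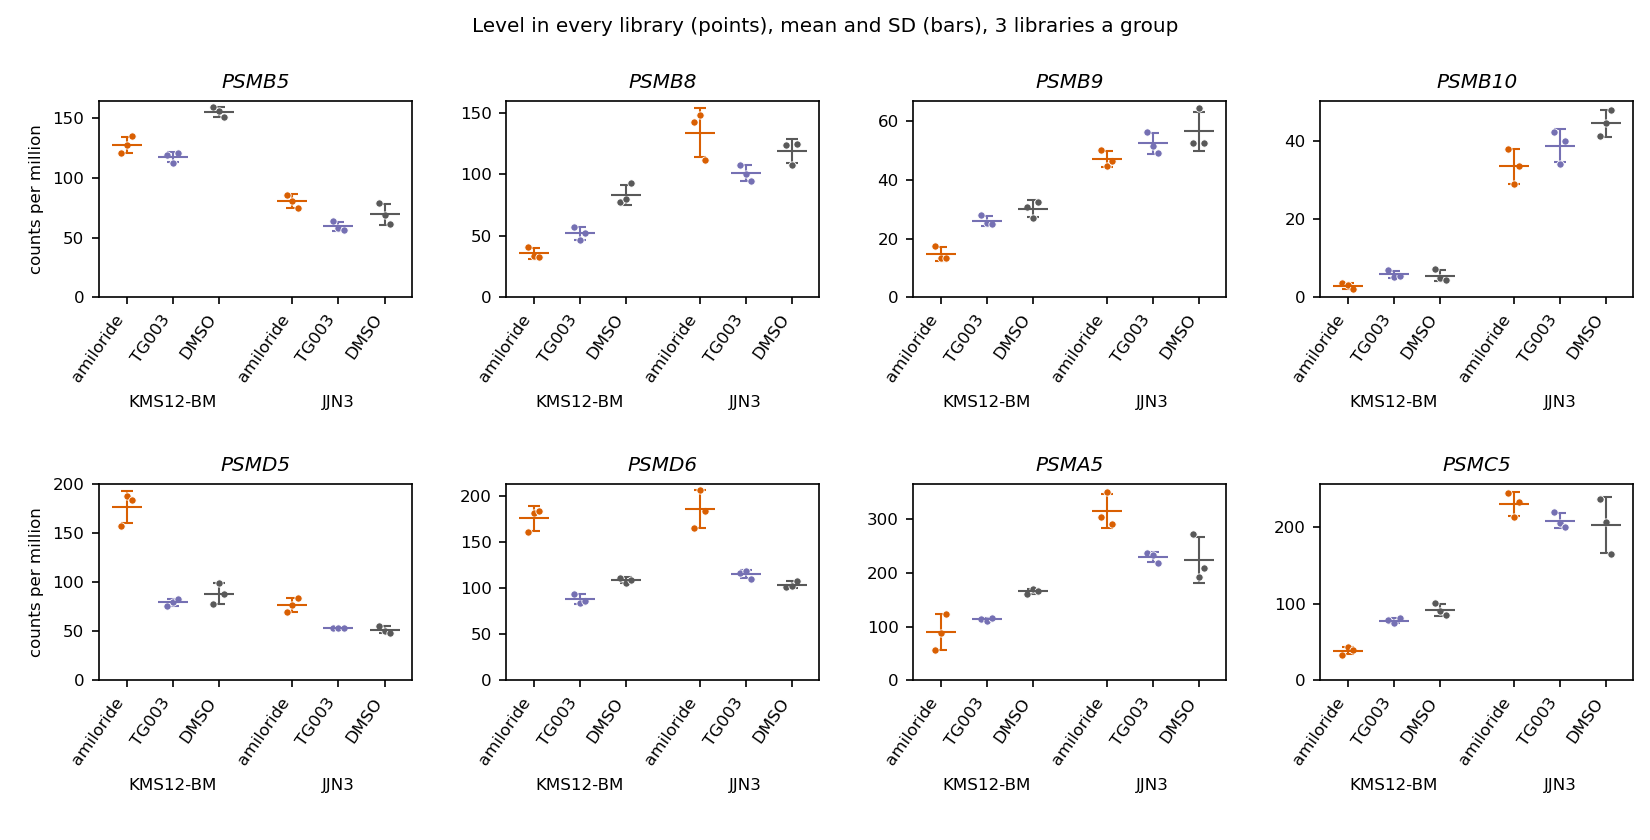
CPM scaled over all 18 libraries (y axes) of 8 proteasome genes by group (x axes), with 1 point a library and bars for the mean and SD (n = 3). PSMB8 and PSMB9 are low in KMS12-BM amiloride libraries relative to KMS12-BM DMSO libraries. PSMD5 and PSMD6 are high in the amiloride libraries of each line relative to the DMSO libraries of the same line.

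In JJN3, amiloride raised more proteasome genes than it lowered. Of the 48 tested, 19 were higher and 4 lower than with DMSO, against 43.6% of 15704 genes called (19.7% higher and 23.9% lower). The median log2 fold change was 0.192 over the 48 genes and -0.034 over all genes, and the proteasome genes took 0.80% ± 0.026 of gene reads with amiloride and 0.62% ± 0.062 with DMSO (SD, n = 3 each). The cap held 9 of the rises and no fall among its 17 subunits. Activators and inhibitors held 4 rises among 5 genes, chaperones 3 rises and 1 fall among 7, and the core 3 rises and 2 falls among 17 tested subunits. The called rises lay between 0.23 and 0.83 on the log2 scale. Under the replicate block, the core subunits PSMA6, PSMB5 and PSMB6 (adjusted p = 0.0216, 0.0186 and 0.00609) and the ATPase PSMC3 (0.00311) were also called higher.

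PSMD6 had the largest rise in JJN3, at 163, 199 and 179.8 CPM with amiloride and 100, 99.02 and 106 CPM with DMSO (0.83 ± 0.08, adjusted p = 9.18e-06). Its amiloride libraries all stood far above its DMSO libraries. PSMD9, a chaperone of the cap base, was at 17.1, 19.9 and 19.4 CPM with amiloride and 11.6, 10.7 and 9.45 CPM with DMSO (0.83 ± 0.11, adjusted p = 6.84e-05). The ATPase PSMC2 (0.72 ± 0.10) and the lid subunit PSMD12 (0.62 ± 0.09) were higher as well. PSMD11, PSMD8, PSMD13, PSMD7, PSMD3 and PSMD1 were also higher, by 0.40, 0.49, 0.33, 0.31, 0.30 and 0.57. Only for PSMD8, among the 23 called genes, did the CPM ranges of the groups overlap. The same share over all called genes is not given here, so the lack of overlap adds no support to the calls.

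In the JJN3 core, PSMA8 (ENSG00000154611, chr18:23713816-23773319, plus strand), an alpha subunit known from the testis, was at 19.6, 19.03 and 17.9 CPM with amiloride and 13.6, 10.1 and 9.86 CPM with DMSO (0.75 ± 0.12, adjusted p = 0.000269). PSMA5 was at 299, 337 and 284 CPM with amiloride and 269, 185 and 204 CPM with DMSO (0.48 ± 0.12, adjusted p = 0.00622), and PSMB7 was higher by 0.23 ± 0.08. PSMB5 was not called (0.20 ± 0.10, adjusted p = 0.113), although it was without DMSO replicate 1 (0.30, adjusted p = 0.0207) and under the replicate block (adjusted p = 0.0186). PSMB8 was at 139.6, 142 and 109 CPM with amiloride and 122, 104 and 122 CPM with DMSO, with overlapping groups and no call (0.17 ± 0.10, adjusted p = 0.219), and it was called higher without amiloride replicate 3 (0.28, adjusted p = 0.0241). PSMB10 fell to 36.96, 27.7 and 32.7 CPM with amiloride, against 40.3, 42.9 and 46.8 CPM with DMSO (-0.42 ± 0.11, adjusted p = 0.00929). PSMB9 was at 49.2, 43.00 and 45.4 CPM with amiloride and 51.8, 62.2 and 51.2 CPM with DMSO (-0.27 ± 0.09, adjusted p = 0.0333), a small fall that was not called without DMSO replicate 2 (-0.17, adjusted p = 0.174), without amiloride replicate 2 (adjusted p = 0.105) or without amiloride replicate 3 (adjusted p = 0.0702).

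The other 2 falls in JJN3 were PSMC3IP (-0.39 ± 0.08, adjusted p = 0.00242) and the chaperone PSMG3 (-0.25 ± 0.09, adjusted p = 0.0284), the second of which was not called without DMSO replicate 1 (-0.18, adjusted p = 0.116) or without amiloride replicate 3 (-0.18, adjusted p = 0.109). PSMG1 was not called (0.13 ± 0.13, adjusted p = 0.427). PSME3, PSME4, which is an activator acting on histones, and PSMF1 were higher by 0.56, 0.38 and 0.38. PSME2 was higher on its own reads (0.73 ± 0.19, adjusted p = 0.0145), but not once the reads of its copies were added (0.18 ± 0.16, adjusted p = 0.39), and its partner PSME1 was not called (0.10 ± 0.07, adjusted p = 0.273).

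Set side by side, 8 genes were higher with amiloride in both lines: PSMC2, PSMD5, PSMD6, PSMD7, PSMD10, PSMD12, PSME3 and PSMF1. They are 72.7% of the genes higher in KMS12-BM and 42.1% of those higher in JJN3. PSMB9, PSMB10, PSMC3IP and PSMG3 were lower in both lines, which is 22.2% of the genes lower in KMS12-BM and 100% of those in JJN3. In JJN3, PSMB9 and PSMG3 were not called with the compared groups fitted alone (adjusted p = 0.0685 and 0.0742) or with no filter on low counts (0.0505 and 0.0553). With the GC trend removed, PSMG3 in JJN3 (-0.14, adjusted p = 0.177) and PSMB10 in KMS12-BM (-0.23, adjusted p = 0.236) were not called. PSMA5, PSMD1 and PSMD3 were called in opposite directions, lower in KMS12-BM and higher in JJN3. Of all tested genes, 33.5% were higher and 35.2% lower in KMS12-BM, and 19.7% were higher and 23.9% lower in JJN3. The share of all genes called in both lines is not given here, so these shared counts have no background beside them. Both responses of each gene are shown in the plot of the amiloride responses.

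**Figure D2:**
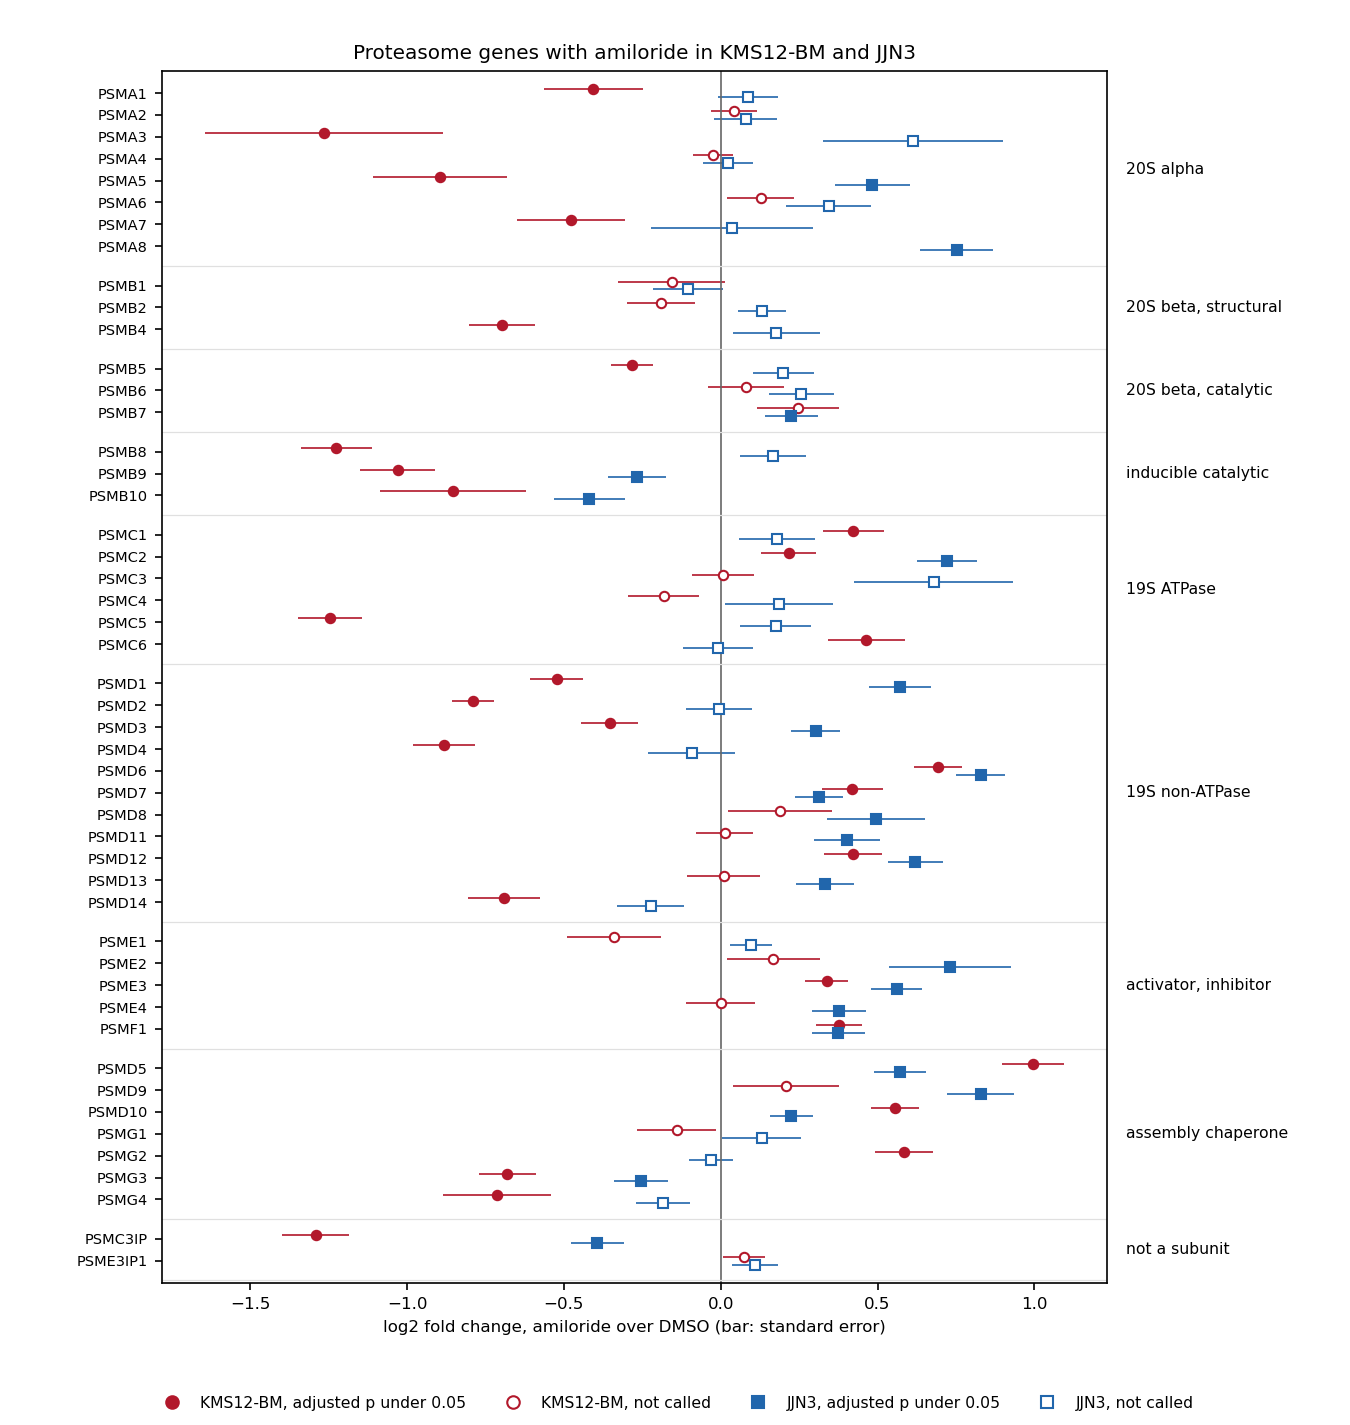
Log2 fold change with amiloride against DMSO (x axis) for each tested proteasome gene (y axis), by role, in KMS12-BM (circles) and JJN3 (squares), with bars of 1 standard error (n = 3 libraries a group) and filled symbols where the adjusted p was under 0.05. All called core (20S) subunits lie below 0 in KMS12-BM, and all called cap (19S) subunits lie above 0 in JJN3.

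The difference between the lines was tested as an interaction, the KMS12-BM response minus the JJN3 response. Of 48 genes, 4 had a higher and 21 a lower response in KMS12-BM, against 43.2% of 17772 genes called (21.6% in each direction), and the median was -0.411 over the 48 genes and 0.011 over all genes. Among the called genes, PSMA3 had the largest difference (-1.89 ± 0.54, adjusted p = 0.0119), followed by PSMC5 (-1.43 ± 0.15, adjusted p = 3.57e-07), PSMB8 (-1.40 ± 0.16, adjusted p = 7.17e-07) and PSMA5 (-1.39 ± 0.27, adjusted p = 0.000658). PSMB9 (-0.77 ± 0.16, adjusted p = 0.000398) and PSMB5 (-0.49 ± 0.12, adjusted p = 0.00222) also differed, whereas PSMB10 (-0.42 ± 0.25, adjusted p = 0.196), PSME2 (-0.57 ± 0.26, adjusted p = 0.0959) and PSMG1 (-0.28 ± 0.19, adjusted p = 0.264) were not called. PSMG1 was called lower with the GC trend removed (-0.54, adjusted p = 0.0442). PSME2 was at -0.17 ± 0.22, adjusted p = 0.596 with copies added. On its own reads it was called without KMS12-BM DMSO replicate 1 (-0.74, adjusted p = 0.0207), without JJN3 DMSO replicate 2 (-0.73, adjusted p = 0.0428) and without JJN3 amiloride replicate 2 (-0.70, adjusted p = 0.0436). PSME1 was called (-0.44 ± 0.17, adjusted p = 0.0381), and not called without KMS12-BM DMSO replicate 1 or 2, JJN3 DMSO replicate 1 or 2, any 1 JJN3 amiloride library or KMS12-BM amiloride replicate 1, the last giving -0.29 (adjusted p = 0.0914), nor with the GC trend removed (-0.33, adjusted p = 0.132).

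The 4 genes with the higher response in KMS12-BM were PSMG2 (0.61 ± 0.12, adjusted p = 0.000307), PSMC6 (0.47 ± 0.18, adjusted p = 0.0413), PSMD5 (0.42 ± 0.13, adjusted p = 0.0144) and PSMD10 (0.32 ± 0.10, adjusted p = 0.0157). PSMC6 was not called without KMS12-BM DMSO replicate 1 or 2, KMS12-BM amiloride replicate 1 or 3, any 1 JJN3 amiloride library or JJN3 DMSO replicate 2, the last giving 0.28 (adjusted p = 0.19). With copies added it was at 0.28 ± 0.11, adjusted p = 0.0403. With the GC trend removed, PSMC6 (0.11, adjusted p = 0.609), PSMD5 (0.14, adjusted p = 0.392) and PSMD10 (0.03, adjusted p = 0.869) were not called, and 1 gene had a higher and 24 a lower response. The median GC content of the canonical transcript was 41.3% for the genes higher with amiloride in KMS12-BM and 52.3% for those lower, and 45.2% for the genes higher in JJN3 and 55.9% for those lower. The part of GC content in these calls was not tested beyond that alternative.

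Of 24 partner genes of the proteasome, which include receptors, deubiquitinases and regulators of its transcription, 12 were higher and 5 lower with amiloride in KMS12-BM, and 8 were higher and 2 lower in JJN3. These called shares, 70.8% and 41.7%, lie near those of all genes, 68.7% and 43.6%. NFE2L1, the transcription factor that raises proteasome genes when the proteasome is inhibited, was at 825, 833 and 844 CPM with amiloride and 394, 379 and 385 CPM with DMSO in KMS12-BM (1.11 ± 0.08, adjusted p = 2.65e-07). In JJN3 it was not called (-0.23 ± 0.09, adjusted p = 0.0608). It was called lower there without DMSO replicate 3 (-0.29, adjusted p = 0.0421) and under the replicate block (-0.23, adjusted p = 0.0152). The interaction was 1.34 ± 0.12, adjusted p = 4.93e-08. DDI2, the protease that activates NFE2L1, was higher in both lines, by 0.76 in KMS12-BM and 0.40 in JJN3. NGLY1, also on the list, was at 94.2, 102 and 108 CPM with amiloride and 93.7, 111 and 103 CPM with DMSO in KMS12-BM. In JJN3 its amiloride libraries, at 93.0, 101 and 97.0 CPM, all lay below its DMSO libraries, at 115, 121 and 124 CPM. AKIRIN2, which carries proteasomes into the nucleus, was higher by 1.12 ± 0.11 in KMS12-BM and was at 0.15 ± 0.09 with no call in JJN3. VCP, the ATPase that extracts ubiquitinated proteins, was lower (-0.96 ± 0.07) in KMS12-BM and was at -0.02 ± 0.09 with no call in JJN3. DDI2, NGLY1, AKIRIN2 and VCP stand outside the rule by which genes were named.

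POMP, the chaperone that closes the core, was at 71.8, 107 and 52.5 CPM with amiloride and 50.5, 41.99 and 61.8 CPM with DMSO in KMS12-BM. The call there (0.59 ± 0.23, adjusted p = 0.0421) rested on single libraries: the value was 0.28 (adjusted p = 0.173) without amiloride replicate 2, and the call was also lost without amiloride replicate 1 (adjusted p = 0.0736), DMSO replicate 1 (0.0994) or DMSO replicate 2 (0.145), under the replicate block (0.137) and with the GC trend removed (0.07, adjusted p = 0.791). In JJN3 it was at 78.5, 94.5 and 110.1 CPM with amiloride and 71.1, 60.3 and 60.8 CPM with DMSO (0.56 ± 0.11, adjusted p = 0.00138). All 3 JJN3 amiloride libraries lay above the DMSO libraries, and the responses of the lines were not called different (0.02 ± 0.28, adjusted p = 1).

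Promoters are shown for 4 genes that changed with amiloride, because NFE2L1 and its relatives bind antioxidant response elements and interferon regulatory factors bind the immunoproteasome promoters. The windows run from 250 bases before to 50 bases after the gene start (RefSeq, GRCh38.p14), and 43 of the 49 genes had one. Each line gives 100 bases on the gene's strand, with the match to a motif in capitals. PSMD5 and PSMD12 rose in both lines and hold TGACNNNGC, the core of the antioxidant response element. PSMB9, called lower in both lines but not under every alternative in JJN3, holds it on the opposite strand. PSMB10, called lower in both lines but not with the GC trend removed in KMS12-BM, holds the interferon regulatory factor element. This is GAAA and again GAAA with 2 bases of any kind between them. No such match stood in the windows of the other immunoproteasome subunits, PSMB8 and PSMB9.
PSMD5, chr9:120843002-120843101, minus strand, 179 to 80 bases before the start: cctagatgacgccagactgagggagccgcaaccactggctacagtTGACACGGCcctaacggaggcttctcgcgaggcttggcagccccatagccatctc
PSMD12, chr17:67366688-67366787, minus strand, 210 to 111 bases before the start: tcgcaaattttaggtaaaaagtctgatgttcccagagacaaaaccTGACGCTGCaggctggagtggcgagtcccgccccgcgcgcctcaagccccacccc
PSMB9, chr6:32853999-32854098, plus strand, 193 to 94 bases before the start: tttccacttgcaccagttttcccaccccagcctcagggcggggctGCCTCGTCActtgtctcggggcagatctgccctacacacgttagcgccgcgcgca
PSMB10, chr16:67936851-67936950, minus strand, 100 to 1 bases before the start: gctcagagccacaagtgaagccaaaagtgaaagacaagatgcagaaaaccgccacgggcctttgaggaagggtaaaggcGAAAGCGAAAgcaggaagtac

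Both strands were searched for each motif, and the 3 motifs do not contain one another. TGACNNNGC stood in 12 of the 43 proteasome promoters (27.9%) and in 14.3% of 14998 promoters of coding genes of the same length. The interferon regulatory factor element stood in 6 of the 43 and in 3.2% of coding promoters, and CCAAT, a common promoter box, in 20 of the 43 (46.5%) and in 36.6%. In KMS12-BM, TGACNNNGC was held by 3 of 11 genes higher with amiloride (PSMD5, PSMD12 and PSMG2), 3 of 15 lower (PSMB9, PSMD1 and PSMD3) and 6 of 15 not called. In JJN3 it was held by 7 of 18 genes higher, 1 of 3 lower and 4 of 21 not called. The interferon regulatory factor element was held in KMS12-BM by 0 of 11 genes higher, 3 of 15 lower and 3 of 15 not called. In JJN3 that element was held by 1 of 18 genes higher, 1 of 3 lower and 4 of 21 not called. The match describes letters in these windows and not a bound site.

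With TG003, 6 of 47 proteasome genes were higher and 13 lower than with DMSO in KMS12-BM, against 58.6% of 15765 genes called (26.9% higher and 31.7% lower). The median log2 fold change was -0.167 over the 47 genes and -0.028 over all genes. In JJN3, 15 of 48 were higher and 1 lower, against 58.3% of 15704 genes called (26.2% higher and 32.1% lower), with a median of 0.128 over the 48 genes and -0.038 over all genes. The 4 largest rises in KMS12-BM and the 3 largest in JJN3 include PSMC1, PSMC6 and PSME2, whose reads lay partly on copies in the DMSO libraries. Without the 6 genes with reads on copies, 1 was higher and 13 lower of 41 in KMS12-BM, and 9 were higher and 1 lower of 42 in JJN3. With the reads of copies added, 1 was higher and 15 lower in KMS12-BM, and 11 were higher and 2 lower in JJN3. Plasma cell markers moved in the same libraries: 6 of 6 were lower with TG003 in both lines. Their summed level was 727.5 to 751.3 CPM with TG003 and 1723 to 1869 CPM with DMSO in KMS12-BM. In JJN3 it was 974.4 to 1061 CPM with TG003 and 1778 to 1936 CPM with DMSO. These markers also moved with amiloride. In KMS12-BM 2 of 6 were higher and 1 lower, and in JJN3 none was higher and 1 was lower. These called shares were 50% and 16.7%, against 68.7% and 43.6% of all genes. The summed level of the markers with amiloride was 2711 to 3089 CPM in KMS12-BM and 1300 to 1743 CPM in JJN3. Their part in the proteasome values was not tested.

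The ATPase subunit PSMC1 (ENSG00000100764, chr14:90722871-90741773, GRCh37, plus strand) gave the largest such value, at 228, 221 and 242 CPM with TG003 and 11.8, 10.8 and 9.64 CPM with DMSO in KMS12-BM (4.43 ± 0.10, adjusted p = 9.35e-12), and a similar value in JJN3 (4.53 ± 0.12, adjusted p = 7.89e-13). On its own reads it was 21.5-fold higher in KMS12-BM and 23.1-fold higher in JJN3, with no overlap of the groups. Of the reads of PSMC1 and its copies, 2.74% lay on the copies with TG003 in KMS12-BM and 96.3% with DMSO, and 2.58% with TG003 in JJN3 and 96.0% with DMSO. With the reads added, PSMC1 was at -0.28 ± 0.08, adjusted p = 0.0138 in KMS12-BM and -0.05 ± 0.08, adjusted p = 0.619 in JJN3 (log2). The ATPase PSMC6 went the same way on its own reads (1.96 ± 0.12, adjusted p = 1.02e-07 in KMS12-BM, and 1.97 ± 0.11, adjusted p = 4.43e-09 in JJN3), and with its copies added it was at -0.10 ± 0.07, adjusted p = 0.247 in KMS12-BM and -0.08 ± 0.09, adjusted p = 0.483 in JJN3. PSMA6, an alpha subunit, changed direction: it was at 0.50 ± 0.11 in KMS12-BM and 0.87 ± 0.13 in JJN3 on its own reads, and at -0.997 ± 0.08, adjusted p = 1.21e-06 in KMS12-BM and -0.80 ± 0.08, adjusted p = 1.83e-06 in JJN3 with the reads of its copies. The reads of gene and copies cannot be told apart where their sequences are the same, as these stretches show.

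The stretches are the 90 coding bases in which each gene and the listed copy differ most, given because a read within the shared sequence can be placed by such differences. They are from GRCh37, 5′ to 3′, with the bases that differ in capitals. PSMC1 differs from its copy on chromosome 3 at 1 base of these 90, and 99.92% of its 1320 coding bases are the same in the copy. PSME2 differs from its copy on chromosome 5 at 7 bases here, with 96.23% of coding bases the same, and PSMD2, which had at most 10.2% of reads on copies, at 12 bases, with 94.49% the same.
PSMC1, chr14:90734716-90735788, plus strand, spliced across an intron: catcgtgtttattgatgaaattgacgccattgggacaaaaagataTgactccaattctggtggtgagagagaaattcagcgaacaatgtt
PSMC1P1, chr3:68685695-68685784, plus strand: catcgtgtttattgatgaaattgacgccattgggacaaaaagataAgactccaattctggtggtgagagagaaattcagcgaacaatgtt
PSME2, chr14:24614965-24615782, minus strand, spliced across an intron: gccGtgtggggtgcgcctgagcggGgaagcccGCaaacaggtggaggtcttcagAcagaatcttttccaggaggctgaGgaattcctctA
PSME2P1, chr5:97549114-97549203, plus strand: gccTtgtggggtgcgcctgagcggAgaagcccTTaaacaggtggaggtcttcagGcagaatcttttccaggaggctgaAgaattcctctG
PSMD2, chr3:184017057-184017146, plus strand: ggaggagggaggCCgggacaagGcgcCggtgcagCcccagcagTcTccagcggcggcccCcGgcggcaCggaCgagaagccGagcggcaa
ENSG00000228818, a copy of PSMD2, chr1:240308583-240308672, minus strand: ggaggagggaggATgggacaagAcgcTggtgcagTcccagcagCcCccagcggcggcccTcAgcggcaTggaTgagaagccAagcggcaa

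**Figure D3:**
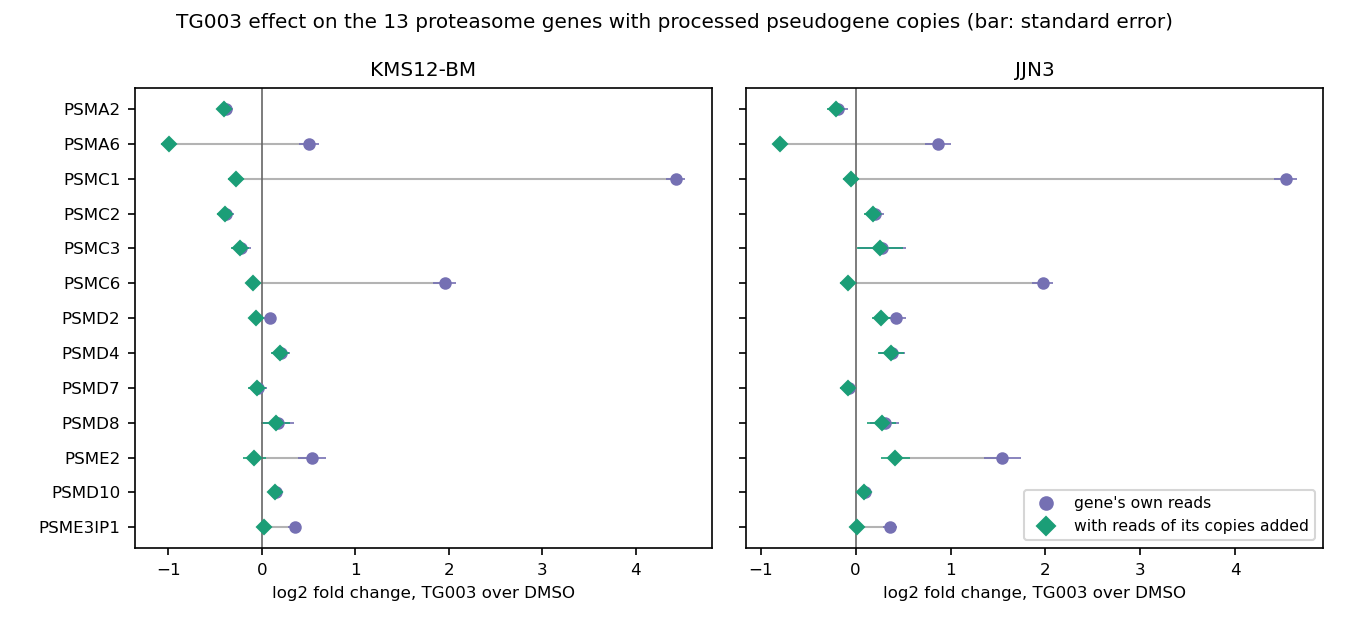
Log2 fold change with TG003 against DMSO (x axes) for the 13 genes with copies (y axis), from the reads of the gene alone and from the reads of gene and copies together, in KMS12-BM and JJN3, with bars of 1 standard error (n = 3 libraries a group). PSMC1 lies above 4 from its own reads in both lines, and near 0 with the copies added.

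Among genes without such copies in KMS12-BM, PSME3 was at 283, 264 and 280.5 CPM with TG003 and 439.9, 444 and 449.6 CPM with DMSO (-0.69 ± 0.07, adjusted p = 6.66e-06), with no overlap. PSMB8 was at 58.7, 47.5 and 53.3 CPM with TG003 and 79.3, 81.6 and 93.8 CPM with DMSO (-0.68 ± 0.11, adjusted p = 0.000324). PSMA1, an alpha subunit, was at 140.3, 127 and 141 CPM with TG003 and 172, 214 and 218 CPM with DMSO (-0.57 ± 0.16, adjusted p = 0.0105). In these 3 genes every TG003 library lay below every DMSO library. The lid subunit PSMD3 (-0.43 ± 0.09, adjusted p = 0.0018) and the catalytic PSMB5 (-0.40 ± 0.07, adjusted p = 0.000403) were also lower. PSMB9 (-0.20 ± 0.12, adjusted p = 0.163), PSMB10 (0.10 ± 0.22, adjusted p = 0.724), PSME1 (-0.16 ± 0.15, adjusted p = 0.367), PSMG1 (-0.30 ± 0.13, adjusted p = 0.0631), POMP (-0.04 ± 0.23, adjusted p = 0.903) and NFE2L1 (0.06 ± 0.08, adjusted p = 0.541) were not called. PSMG1 was called lower under the replicate block (-0.28, adjusted p = 0.0314) and without DMSO replicate 3 (-0.41, adjusted p = 0.0171). It was also called lower in DESeq2 (-0.31, adjusted p = 0.0416), with median-of-ratios factors (0.0493) and with no filter on low counts (0.0349). The same held with the compared groups fitted alone (adjusted p = 0.047) and with the GC trend removed (-0.405, adjusted p = 0.0144). PSMC3IP, in contrast to the amiloride libraries, was at 45.9, 47.5 and 46.5 CPM with TG003 and 24.1, 31.8 and 30.5 CPM with DMSO (0.69 ± 0.10, adjusted p = 0.00014).

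In JJN3, PSMA3 was at 114, 119.9 and 108 CPM with TG003 and 76.2, 44.4 and 38.3 CPM with DMSO (1.10 ± 0.29, adjusted p = 0.012), and PSMA8 at 21.99, 24.2 and 23.3 CPM with TG003 and 13.6, 10.1 and 9.86 CPM with DMSO (1.05). The 2 groups did not overlap in either gene. PSMD9, PSMD1, PSME4, PSMD13 and PSMD4 were higher by 0.81, 0.58, 0.57, 0.49 and 0.38. PSME2 was higher on its own reads (1.54 ± 0.20, adjusted p = 0.000139) and, with its copies added, by 0.42 ± 0.16, adjusted p = 0.0436. The chaperone PSMG3 was lower (-0.23 ± 0.09, adjusted p = 0.0339), and was not called without DMSO replicate 1 (-0.16, adjusted p = 0.144), TG003 replicate 2 (adjusted p = 0.111) or TG003 replicate 3 (adjusted p = 0.0706). NFE2L1 was higher (0.29 ± 0.09, adjusted p = 0.0177), and was not called without DMSO replicate 3 (0.23, adjusted p = 0.0731) or TG003 replicate 1 (0.19, adjusted p = 0.0914).

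None of the 3 immunoproteasome subunits was called with TG003 in JJN3, at -0.20 ± 0.10, adjusted p = 0.111 for PSMB8, -0.08 ± 0.09, adjusted p = 0.487 for PSMB9 and -0.17 ± 0.11, adjusted p = 0.208 for PSMB10. PSMB5 (-0.20 ± 0.10, adjusted p = 0.0926), PSME1 (0.07 ± 0.07, adjusted p = 0.408), PSMG1 (0.14 ± 0.13, adjusted p = 0.356) and POMP (0.21 ± 0.11, adjusted p = 0.117) were not called either, and PSMB5 was called lower without DMSO replicate 3 (-0.28, adjusted p = 0.0267). The interaction of TG003 and line was called for 10 of 48 genes, all with the lower response in KMS12-BM, against 13.9% of 17772 genes called (7.13% higher and 6.8% lower). Among them were PSME3 (-0.79 ± 0.11, adjusted p = 6.48e-05) and PSMD3 (-0.61 ± 0.12, adjusted p = 0.00221), the second lower in KMS12-BM and higher in JJN3. PSME2 (-0.98 ± 0.26, adjusted p = 0.0201) was not called with copies added (-0.55, adjusted p = 0.103), and also not without KMS12-BM DMSO replicate 2 (-0.93, adjusted p = 0.0505), DMSO replicate 3 (-0.85, adjusted p = 0.0554) or TG003 replicate 2 (-0.93, adjusted p = 0.0556). PSMD9 (-0.65 ± 0.21, adjusted p = 0.0433) was not called without any 1 KMS12-BM TG003 library, JJN3 TG003 replicate 1 or 3, JJN3 DMSO replicate 2 or 3, KMS12-BM DMSO replicate 3 or KMS12-BM DMSO replicate 1, the last giving -0.45 (adjusted p = 0.108).

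PSMB8 was not called different between the lines in its TG003 response (-0.45 ± 0.16, adjusted p = 0.0677). It was called without KMS12-BM TG003 replicate 1 (-0.52, adjusted p = 0.0466) and with no filter on low counts (-0.455, adjusted p = 0.0175). The call was also made with the GC trend removed (-0.453, adjusted p = 0.0453) and with the reads of copies added to their parent genes (-0.52, adjusted p = 0.034). PSMB5 (-0.17 ± 0.12, adjusted p = 0.395), PSMB9 (-0.10 ± 0.15, adjusted p = 0.79), PSMB10 (0.31 ± 0.25, adjusted p = 0.483), PSME1 (-0.21 ± 0.17, adjusted p = 0.485), PSMG1 (-0.41 ± 0.19, adjusted p = 0.172), POMP (-0.22 ± 0.28, adjusted p = 0.708) and NFE2L1 (-0.21 ± 0.12, adjusted p = 0.308) were not called in that interaction.

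The drugs were also compared with each other, at the same dose of 0.4 mM in JJN3 and at 0.1 mM amiloride and 0.4 mM TG003 in KMS12-BM. In JJN3, 13 of 48 genes were higher and 11 lower with amiloride than with TG003, against 62.2% of 15704 genes called (33.3% higher and 28.9% lower). PSMD6 was at 163, 199 and 179.8 CPM with amiloride and 117, 118 and 109.9 CPM with TG003 (0.65 ± 0.08, adjusted p = 1.05e-05). PSMD12 (0.61 ± 0.09, adjusted p = 5.31e-05), PSMC2 (0.52 ± 0.10, adjusted p = 0.000413) and PSMD5 (0.50 ± 0.08, adjusted p = 0.000154) were higher as well. In each of these 4 genes the amiloride and TG003 ranges did not overlap. PSMB8 and PSMB5 were higher with amiloride, by 0.37 ± 0.10 and 0.40 ± 0.10, and POMP by 0.35 ± 0.11, the last not called without amiloride replicate 3 (0.22, adjusted p = 0.0671). PSMB9 (-0.19 ± 0.09, adjusted p = 0.0939), PSMB10 (-0.25 ± 0.11, adjusted p = 0.0714), PSME1 (0.03 ± 0.07, adjusted p = 0.74) and PSMG1 (-0.01 ± 0.13, adjusted p = 0.949) were not called. PSMB10 was called lower without amiloride replicate 1 (-0.35, adjusted p = 0.0201) and without TG003 replicate 2 (-0.33, adjusted p = 0.0285).

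The largest falls with amiloride against TG003 in JJN3 were PSMC1 (-4.35), PSMC6 (-1.98), PSMC3IP (-0.83 ± 0.08, adjusted p = 2.06e-06) and PSME2 (-0.81). With the reads of copies added, PSMC1 was at 0.28 ± 0.08, adjusted p = 0.0093, PSMC6 at 0.19 ± 0.09, adjusted p = 0.0742 and PSME2 at -0.24 ± 0.16, adjusted p = 0.206, and 16 of the 48 genes were higher and 6 lower. PSMA6 was at -0.53 ± 0.13 on its own reads and 1.07 ± 0.08, adjusted p = 7.31e-08 with copies added. NFE2L1 was lower with amiloride (-0.52 ± 0.09, adjusted p = 0.000316).

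In KMS12-BM, 14 of 47 genes were higher and 18 lower with amiloride at 0.1 mM than with TG003 at 0.4 mM, against 77.8% of 15765 genes called (40.9% higher and 36.9% lower). Without the genes with reads on copies, 14 were higher and 12 lower of 41, and with the reads of copies added 18 were higher and 13 lower of 47. PSMD5 (1.15 ± 0.10, adjusted p = 7.77e-07), PSME3 (1.03 ± 0.07, adjusted p = 9.65e-08), PSMD6 (0.99 ± 0.08, adjusted p = 2.98e-07) and PSMF1 (0.78 ± 0.08, adjusted p = 1.82e-06) were the largest rises, and PSMC1 (-4.01), PSMC3IP (-1.99), PSMC6 (-1.49) and PSMA3 (-1.46) the largest falls. PSMC1 was at 0.62 ± 0.08, adjusted p = 2.48e-05 and PSMC6 at 0.54 ± 0.07, adjusted p = 1.49e-05 with copies added, and PSMA6, at -0.37 ± 0.11 on its own reads, was at 1.17 ± 0.08, adjusted p = 7.98e-08 with copies added. PSMA3 was not called under the replicate block (-1.45, adjusted p = 0.0505). PSMB8, PSMB9 and PSMB10 were lower with amiloride, at -0.55 ± 0.11, -0.83 ± 0.12 and -0.95 ± 0.23. NFE2L1 was higher with amiloride (1.06 ± 0.08, adjusted p = 1.67e-07). PSMB5 (0.12 ± 0.07, adjusted p = 0.136), PSME1 (-0.17 ± 0.15, adjusted p = 0.304) and PSMG1 (0.16 ± 0.13, adjusted p = 0.274) were not called, and PSMB5 was called higher with the GC trend removed (0.34, adjusted p = 0.000299).

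PSME2 (-0.37 ± 0.15, adjusted p = 0.0396) and POMP (0.62 ± 0.23, adjusted p = 0.0292) were called in KMS12-BM between the drugs and rested on single libraries. PSME2 was at 0.13 with copies added (adjusted p = 0.348), and was not called without amiloride replicate 1 (-0.28, adjusted p = 0.148) or 3 (adjusted p = 0.0818) or without TG003 replicate 1 (adjusted p = 0.112) or 3 (adjusted p = 0.0837). POMP was at 0.31 (adjusted p = 0.112) without amiloride replicate 2, and was not called without amiloride replicate 1 or any 1 of the TG003 libraries (adjusted p between 0.0541 and 0.0771), nor under the replicate block (adjusted p = 0.103).

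With DMSO, the lines differed in 37 of 48 proteasome genes, 21 higher and 16 lower in KMS12-BM than in JJN3, against 76% of 17772 genes called (36.8% higher and 39.3% lower). CPM in this comparison is scaled over all 18 libraries, and levels of different genes are compared per kilobase of the canonical transcript. Per kilobase, the highest levels in KMS12-BM were 416 ± 49.8 CPM for PSMB7 and 382 ± 60.6 CPM for PSMB4 (SD, n = 3), and in JJN3 551 ± 115 CPM for PSMB4 and 311 ± 33.2 CPM for PSMB6. PSMB11, the subunit of the thymic proteasome, was not tested in any comparison for lack of reads.

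**Figure D4:**
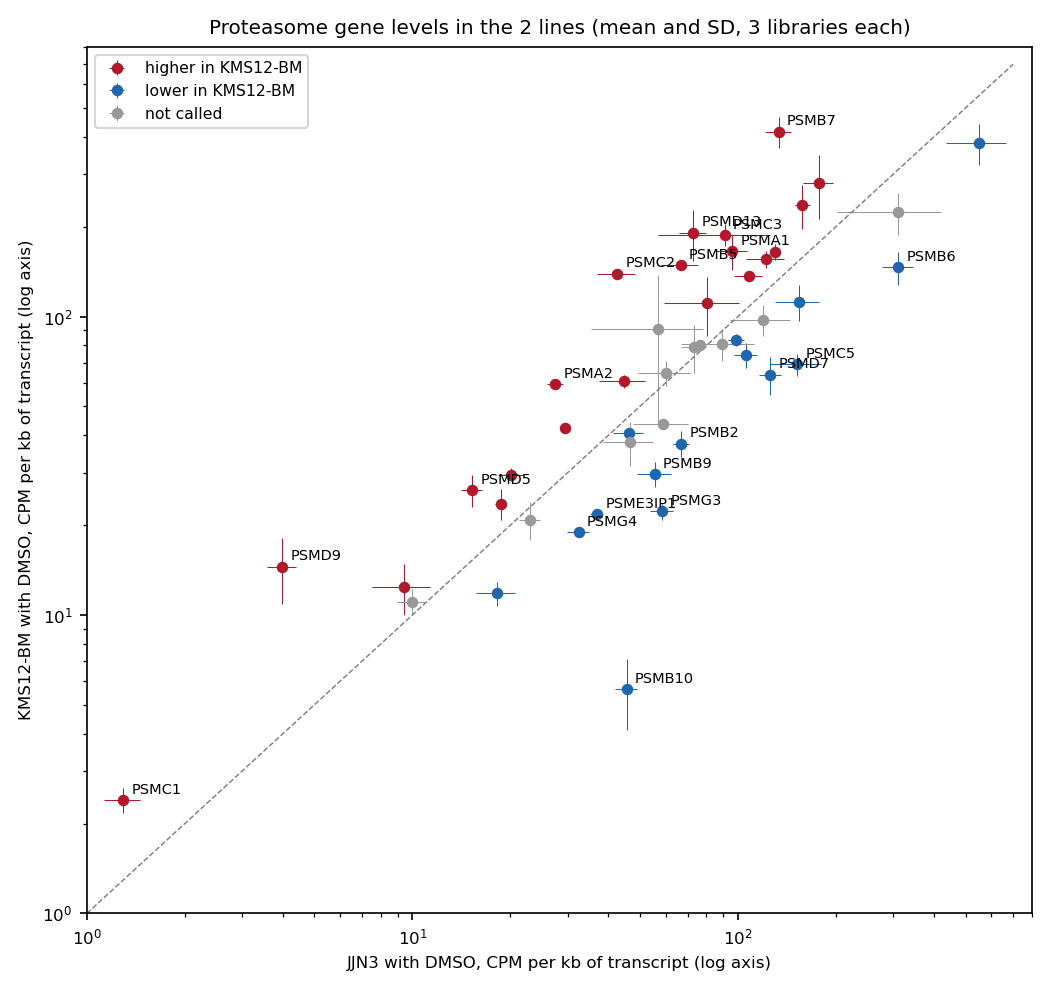
Mean level per kilobase in KMS12-BM DMSO libraries and in JJN3 DMSO libraries on log axes (CPM per kilobase, n = 3 libraries a group), each point 1 gene coloured by its call, with bars of 1 SD and a dashed line of equal levels. PSMB10, PSMG3 and PSMC5 lie on the JJN3 side of the line, and PSMD9, PSMC2 and PSMB7 on the KMS12-BM side. PSMA8 and PSMB11, at under 1 in at least 1 line, are not drawn.

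All 3 immunoproteasome subunits were lower in KMS12-BM. PSMB10 was at 7.14, 5.04 and 4.32 CPM in KMS12-BM and 41.05, 44.4 and 47.9 CPM in JJN3 (-3.03 ± 0.18, adjusted p = 1.12e-11). PSMB9 was at 30.9, 27.02 and 32.6 CPM in KMS12-BM and 52.7, 64.3 and 52.4 CPM in JJN3 (-0.91 ± 0.11, adjusted p = 2.04e-07), and PSMB8 at 77.4, 80.2 and 92.7 CPM in KMS12-BM and 124, 108 and 125 CPM in JJN3 (-0.51 ± 0.11, adjusted p = 0.000365). For all 3 genes each KMS12-BM library lay below each JJN3 library, with the widest gap for PSMB10. The constitutive PSMB5 and PSMB7 were higher in KMS12-BM (1.16 ± 0.09 and 1.64 ± 0.12) and PSMB6 lower (-1.09 ± 0.12). Per kilobase, PSMB8, PSMB9 and PSMB10 made up 13.8%, 11.6% and 14.9% of the level of the 6 catalytic subunits in the KMS12-BM DMSO libraries and 27.8%, 27.3% and 31.6% in the JJN3 DMSO libraries.

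That share was lowest in the KMS12-BM amiloride libraries, at 8.05%, 5.70% and 4.72%, against 12.5%, 10.7% and 11.04% with TG003 and the DMSO values above. In JJN3 it was 24.7%, 25.2% and 24.4% with amiloride and 26.5%, 26.7% and 27.9% with TG003. The KMS12-BM amiloride libraries stood apart from the DMSO libraries of the line, and so did the JJN3 amiloride libraries, by a smaller distance.

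Among other genes of the line comparison, PSMD9 was at 50.4, 31.1 and 37.3 CPM in KMS12-BM and 11.8, 11.1 and 9.67 CPM in JJN3 (1.86 ± 0.15, adjusted p = 9.22e-10). PSMC2 was at 361, 386 and 385 CPM in KMS12-BM and 125, 123 and 97.5 CPM in JJN3 (1.71 ± 0.10, adjusted p = 2.19e-12), and PSMD13, a lid subunit, was higher by 1.39 ± 0.11. All of these KMS12-BM libraries lay above the JJN3 libraries. The chaperone PSMG3 (-1.39 ± 0.09, adjusted p = 8.55e-12) and the ATPase PSMC5 (-1.14 ± 0.11, adjusted p = 6.79e-09) were lower in KMS12-BM. PSME1 was higher (0.58 ± 0.12, adjusted p = 0.00017), whereas PSMG1 (-0.30 ± 0.14, adjusted p = 0.0546) and POMP (-0.38 ± 0.20, adjusted p = 0.101) were not called. PSMG1 was called lower without KMS12-BM DMSO replicate 2 (-0.44, adjusted p = 0.00874) and without JJN3 DMSO replicate 3 (-0.41, adjusted p = 0.0118), and POMP without KMS12-BM DMSO replicate 3 (-0.54, adjusted p = 0.0374).

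PSME2 was higher in KMS12-BM on its own reads (0.47 ± 0.19, adjusted p = 0.0328), with overlapping ranges. It was at 0.03 with copies added (adjusted p = 0.883), and was not called without KMS12-BM DMSO replicate 2 (0.41, adjusted p = 0.0971) or 3 (0.34, adjusted p = 0.149), or without JJN3 DMSO replicate 3 (0.27, adjusted p = 0.155). NFE2L1 was lower (-0.23 ± 0.09, adjusted p = 0.0197) and was not called without KMS12-BM DMSO replicate 2 (adjusted p = 0.0563), JJN3 DMSO replicate 1 (0.0597) or JJN3 DMSO replicate 2 (0.0746).

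PSMA8 separated the lines most. Over the 3 DMSO libraries it had 2 reads in KMS12-BM and 993 in JJN3. Taken as shares of all gene reads, without the scaling of CPM, this is a ratio of 0.00152 with a 95% counting interval of 0.000184 to 0.00552. With TG003 there was 1 read in KMS12-BM and 2411 in JJN3, a ratio of 0.000412 (1.04e-05 to 0.0023). With amiloride there were 0 reads in KMS12-BM and 2030 in JJN3, a ratio of at most 0.00172 by the same interval, and at least 715.6-fold lower in KMS12-BM on a floor of 3 counts for the 3 libraries together, which is a one-sided limit. Intervals and floors cover counting error only, since the reads carry no molecular identifiers.

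Genes of class I presentation, a list of 14 that includes the transporter genes TAP1 and TAP2 and the HLA genes, were mostly lower in KMS12-BM than in JJN3 with DMSO, 11 lower and 3 higher, against 76% of all genes called. With amiloride, 3 were higher and 6 lower in KMS12-BM, and none was higher and 2 were lower in JJN3, called shares of 64.3% and 14.3% against 68.7% and 43.6% of all genes. TAP1, which neighbours PSMB9, was higher with amiloride in KMS12-BM (0.58 ± 0.09, adjusted p = 0.000128) while PSMB9 was lower. IRF1, an interferon-responsive activator of these genes, was higher by 1.33 ± 0.14 there, and NLRC5, the transactivator of class I genes, lower (-1.26 ± 0.16). With TG003, 2 were higher and 10 lower in KMS12-BM, and 1 was higher and 9 lower in JJN3, called shares of 85.7% and 71.4% against 58.6% and 58.3% of all genes.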

How the data were processed

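Poly(A)+ RNA was sequenced in 18 libraries made with a strand-specific kit, per the labels. The authors deposited whole-number read counts per Ensembl gene, 1 file a library. The submitters' processing notes name cutadapt 1.4, TopHat2 2.0.11, HTSeq 0.6.1p1, DESeq2 1.12.4 and hg19. Not given in the sources used here were the counting annotation, the strand setting and the treatment of reads with several alignments. The deposited normalised tables were not used. Records that name no gene were left out, with 6.42% to 13.6% of records in no feature, 7.79% to 17.4% aligned at several places and 1.65% to 2.84% ambiguous.

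Of 57905 identifiers, 55538 matched GENCODE 44 on GRCh37. edgeR 4.0.16 (R 4.3.3, TMM, filterByExpr with a minimum count of 10 and 15 in total, robust quasi-likelihood F tests, Benjamini-Hochberg over all tested genes) fitted the 9 libraries of each line alone, and all 18 for the line comparison and the interactions. A standard error is the size of the log2 fold change over the square root of F. Depth was 23707695 to 50570234 gene reads a library. Replicates differed by more than sampling noise (chi-square per degree of freedom 9.27 to 33.17, genes with at least 20 reads), and none was merged. In each comparison the 4 largest called rises and falls were named, with PSMB5, PSMB8, PSMB9, PSMB10, PSME1, PSME2, PSMG1, POMP and NFE2L1. Members and lists were chosen with earlier results of these data known.

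Alternatives were DESeq2 1.42.0, limma 3.58.1 (voom), median-of-ratios factors, other filters, fits of the compared groups alone, a library left out, a replicate block and reads of pseudogenes added by symbol. Copies found by sequence (BLAST 2.17.0, at least 90% identity over 200 bases and 50% of the copy), the genes without such copies and a GC trend removed were chosen after seeing the data. Scripts were tested on simulated data. Titles share no replicate number, and the block was the run of consecutive library numbers. In KMS12-BM libraries of 1 run deviated together (correlation 0.101 to 0.355 in all 9 pairs).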

Additional observations from a re-analysis of the deposited data

Results flagged for a closer look

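The values below are differences between the lines in the response to a drug, KMS12-BM response minus JJN3 response on the log2 scale, each called by the edgeR interaction term. For amiloride, given at 0.1 mM to KMS12-BM and 0.4 mM to JJN3 so that line and dose cannot be told apart, the response of the subunits PSMA3 (-1.89), PSMC5 (-1.43), PSMB8 (-1.40), PSMA5 (-1.39), PSMB9 (-0.77), PSMB5 (-0.49) and of the activator subunit PSME1 (-0.44) was lower in KMS12-BM. The PSME1 call was lost with the GC trend removed (-0.33, adjusted p = 0.132). The response of the chaperones PSMG2 (0.61), PSMD5 (0.42) and PSMD10 (0.32), of the ATPase PSMC6 (0.47) and of the transcription factor NFE2L1 (1.34) was higher. The calls of PSMC6 (0.11, adjusted p = 0.609), PSMD5 (0.14, adjusted p = 0.392) and PSMD10 (0.03, adjusted p = 0.869) were also lost with the GC trend removed. For TG003, at the same dose in both lines, PSME2 (-0.98), PSME3 (-0.79), PSMD9 (-0.65) and PSMD3 (-0.61) had the lower response in KMS12-BM. PSME2 has reads on copies, and its value was not called with them added (-0.55, adjusted p = 0.103). The calls of PSME1 and PSMC6 for amiloride, and of PSME2 and PSMD9 for TG003, were also lost without single libraries, as given above.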

How the results depend on the processing

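Leaving out each library in turn gave 27 to 29 called proteasome genes for amiloride against DMSO in KMS12-BM, 20 to 26 in JJN3, 16 to 21 for TG003 in KMS12-BM, 14 to 19 in JJN3, 28 to 32 and 20 to 24 between the drugs in KMS12-BM and JJN3, 34 to 38 between the lines, and 19 to 24 and 8 to 13 for the amiloride and TG003 interactions. Every other alternative kept each count within 1.5 times its main value, except that with no filter on low counts the TG003 interaction had 16 calls (10 with the filter), over a larger set of tested genes. With the run of consecutive library numbers as a replicate block the counts were 26, 27, 20, 19, 30, 30, 37, 25 and 10 in that order. Within KMS12-BM the block ended the calls of PSMA1, PSMA3, PSMA7 and POMP with amiloride and of PSMA3, PSMB6 and POMP between the drugs (PSMB6 0.29, adjusted p = 0.0577), gained PSMG1 with TG003, and changed no other proteasome call. In JJN3 same-run libraries correlated at -0.079 to 0.237, and the numbers were not taken to pair them. Under the block, amiloride in JJN3 gained PSMA6, PSMB5, PSMB6 and PSMC3 as higher and NFE2L1 as lower. TG003 gained PSMC2 and PSMD8 as higher and PSMB5 as lower. Between the drugs, PSMB2 and PSMC3 were gained as higher and PSMB10, PSMD13, PSME4 and PSMG2 as lower. Between the lines the block ended the PSME2 call and gained PSMG1, and in the amiloride interaction it ended PSMA1 and gained PSMC3. Of the alternative values of the genes named by rule, 2095 kept direction and call, 102 lost and 43 gained the call, and 44 changed sign.

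Sign changes by reads of copies, named by symbol and found by sequence alike, were PSMC1 with TG003 (-0.28 in KMS12-BM, -0.052 in JJN3) and between the drugs (0.62 and 0.28), PSME2 in KMS12-BM with TG003 (-0.081) and between the drugs (0.13), PSMG1 between the drugs in JJN3 (0.011) and POMP in the amiloride interaction (-0.017). PSMA6 is outside that rule and turned as given above, with TG003 and between the drugs. Copies found by sequence also turned PSMC6 with TG003 (-0.10 in KMS12-BM, -0.076 in JJN3) and between the drugs (0.54 and 0.19). Removing the GC trend turned, between the drugs, PSME1 (0.007) and PSMG1 (-0.032) in KMS12-BM and PSMG1 in JJN3 (0.032), and, in the amiloride interaction, PSMB10 (0.014) and POMP (-0.37). PSMG1 between the drugs in JJN3 was at 0.005 in DESeq2, 0.004 with median-of-ratios factors, 0.022 with no filter and 0.001 with the stricter filter, and POMP in the amiloride interaction was at -0.016 in limma voom. Leaving out libraries gave -0.106 to 0.10 for PSMG1 and -0.001 to 0.064 for PSME1 between the drugs in JJN3, -0.30 to 0.23 for POMP in the amiloride interaction, -0.005 to 0.29 for PSME2 with amiloride in KMS12-BM, -0.032 to 0.11 for NFE2L1, -0.17 to 0.12 for POMP and -0.06 to 0.33 for PSMB10 with TG003 in KMS12-BM, and -0.14 to 0.019 for PSMB9 with TG003 in JJN3. Beyond the additions of copies, the cause was not tested.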

Other observations

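Ubiquitin is loaded by the activating enzymes UBA1 and UBA6 before it is passed to proteasome substrates. UBA6 was higher in KMS12-BM with amiloride (0.50 ± 0.09, edgeR adjusted p = 0.000252), and with TG003 in both lines (0.36 ± 0.09, adjusted p = 0.00384 in KMS12-BM, and 0.55 ± 0.07, adjusted p = 1.98e-05 in JJN3). It was not called with amiloride in JJN3 (0.08 ± 0.07, adjusted p = 0.402). UBA1 was lower with amiloride in KMS12-BM (-0.62 ± 0.07, adjusted p = 1.46e-05), and higher with TG003 in KMS12-BM (0.19 ± 0.07, adjusted p = 0.0409) and JJN3 (0.55 ± 0.10, adjusted p = 0.000391). These 2 genes were named after their values were seen.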
